A study of Rattus norvegicus with 6 samples.

Results

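The prostanoid genes of the rat lateral ventricular choroid plexus, led by *Ptgds*, were compared between embryonic day 15 (E15) and adulthood. They were taken as the rows of the authors' table of genes called different between the ages that carry any of 10 symbols, and 7 identifiers for 6 symbols were found (*Ptgds*, *Ptgs1*, *Ptgs2*, *Ptges2*, *Hpgd* and *Ptgis*, which has 2 identifiers), of 29479 identifiers in all. The symbols *Ptges*, *Ptges3*, *Ptgr1* and *Ptgfr* were not in that table and were not analysed here. Because the table lists only genes that the authors had called between these same libraries, the genes were chosen by the measured difference between the ages, and their values are given below as a description without a test.

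The animals were untreated Sprague-Dawley rats, embryos at E15 or non-pregnant adults of 6 weeks. Both lateral ventricular plexuses of 10 animals were pooled for each RNA sample, with 3 pools and 3 libraries at each age, and no animal was sequenced on its own. The plexus was taken whole, with its stroma, vessels and blood. In RNA from whole tissue, fewer cells of a type and less RNA per cell cannot be told apart. Raw counts are whole-number reads per gene, and normalised read counts are these counts scaled by TMM factors (trimmed mean of M-values, a scaling set by the majority of genes) to a common library. Fold changes and their standard errors come from edgeR's quasi-likelihood fit over 16643 genes.

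Prostanoids are made from arachidonic acid, which phospholipases release from membranes. The cyclooxygenases *Ptgs1* and *Ptgs2* turn it into prostaglandin H2, and separate synthases turn this into prostaglandin D2, prostaglandin E2, prostacyclin or thromboxane, which act through G protein-coupled receptors and are cleared by uptake carriers and by the dehydrogenase *Hpgd*. *Ptgds* makes prostaglandin D2 and is also a secreted lipocalin that carries small lipophilic molecules. It is known as an abundant protein of cerebrospinal fluid, made in the choroid plexus, the leptomeninges and oligodendrocytes.

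Library totals lay between 17875089 and 19204440 counts. The ages differed for most genes, with 10652 of 16643 called, 5773 higher at E15 and 4879 higher in the adult. When libraries were scaled by their totals alone, 9799 were higher at E15 and 2292 in the adult. The median log2 fold change (E15 over adult) of all genes tested was 0.14 with TMM, 0.26 with upper quartile factors, 0.60 with totals that left out the 10 genes of highest mean count and 0.94 with total counts only. E15 replicate 1 stood apart from the other E15 pools by a chi-square of raw counts, in which abundant genes weigh most. This gave 56.4 and 47.2 per degree of freedom against them, compared with 5.40 between these. By Spearman rank correlation it did not stand apart as much, at 0.970 and 0.971 against 0.978 between these. Pairs of adult pools had correlations of 0.963 to 0.965. Of 12 epithelial markers of the plexus, 9 could be named, among them *Ttr*, *Folr1*, *Kl* and *Aqp1*. All 9 had counts at both ages and were higher in the adult. Only genes called by the authors have names, so markers they did not call are missing from this and every later list. Of 9958 named genes tested, 5035 were called higher at E15, 4204 in the adult, and 719 were not called. Genes listed only under a protein label, such as ENPP2_RAT (log2 fold change -7.57), were not matched to the lists and count there as not named.

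*Ptgds* (ENSRNOG00000015550) gave 221, 206 and 217 raw counts over the E15 pools, against 58362, 53894 and 46383 over the adult pools. Every adult pool lay far above every E15 pool, and within an age the highest pool exceeded the lowest by only 1.14-fold at E15 and 1.30-fold in the adult. In normalised read counts this was 169.9 ± 11.1 at E15 against 72106 ± 9643 in adult pools (SD, n = 3 pools each), a 424-fold enrichment in the adult (log2 fold change -8.73 ± 0.16, SE). *Ptgds* took 0.252% to 0.315% of all adult counts, compared with 0.00109% to 0.00124% at E15. By mean raw count it had rank 20 in the adult and rank 9799 at E15, and by fitted change toward the adult it had rank 16 of the 16643 genes tested.

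Because the 10 genes of highest count at each age took 24.8% to 27.7% of the adult counts and 5.88% to 7.27% of those at E15, ratios within a library were also taken, which do not depend on library scaling. *Ttr*, the thyroid hormone carrier that the plexus secretes, is a defining marker of the epithelium. There were 0.386 ± 0.0680 counts of *Ptgds* per 1000 counts of *Ttr* at E15 against 18.0 ± 0.551 in adult pools (SD, n = 3), a ratio 46.7-fold higher in the adult. Against *Kl*, the gene of the hormone co-receptor klotho, the ratio was 0.0673 ± 0.00885 at E15 against 0.633 ± 0.117 in adult pools. Both ratios were higher in every adult pool than in any E15 pool. *Ttr* was fitted 8.96-fold and *Kl* 45.1-fold higher in the adult, both less than *Ptgds*. Since *Ptgds* was chosen by its difference between the ages, the ratios describe its larger fold and test nothing.

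The promoter of *Ptgds* is shown because the gene had the largest difference among the prostanoid genes. The sequence is the 250 bases before the RefSeq start of transcription (build GRCr8, chr3:28682979-28683228, minus strand), with capitals marking E-boxes, CANNTG, the site of basic helix-loop-helix factors, read on both strands.
Ptgds: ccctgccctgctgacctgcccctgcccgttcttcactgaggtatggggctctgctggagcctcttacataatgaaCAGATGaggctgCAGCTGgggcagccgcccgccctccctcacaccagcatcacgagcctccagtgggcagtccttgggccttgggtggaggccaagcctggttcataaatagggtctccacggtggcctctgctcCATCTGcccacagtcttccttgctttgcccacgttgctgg
It holds 3 E-boxes. CAGATG begins 175 bases before the start, CAGCTG begins 163 bases before it and CATCTG begins 40 bases before it. An E-box was present in 65.5% of 33469 rat promoters of the same length. The GC box GGGCGG was found on the minus strand 2 times in overlap, and it occurs in 30.5% of those promoters. Neither TATAAA (12.9%) nor CCAAT (34.0%) is in this window on either strand.

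**Figure D1:**
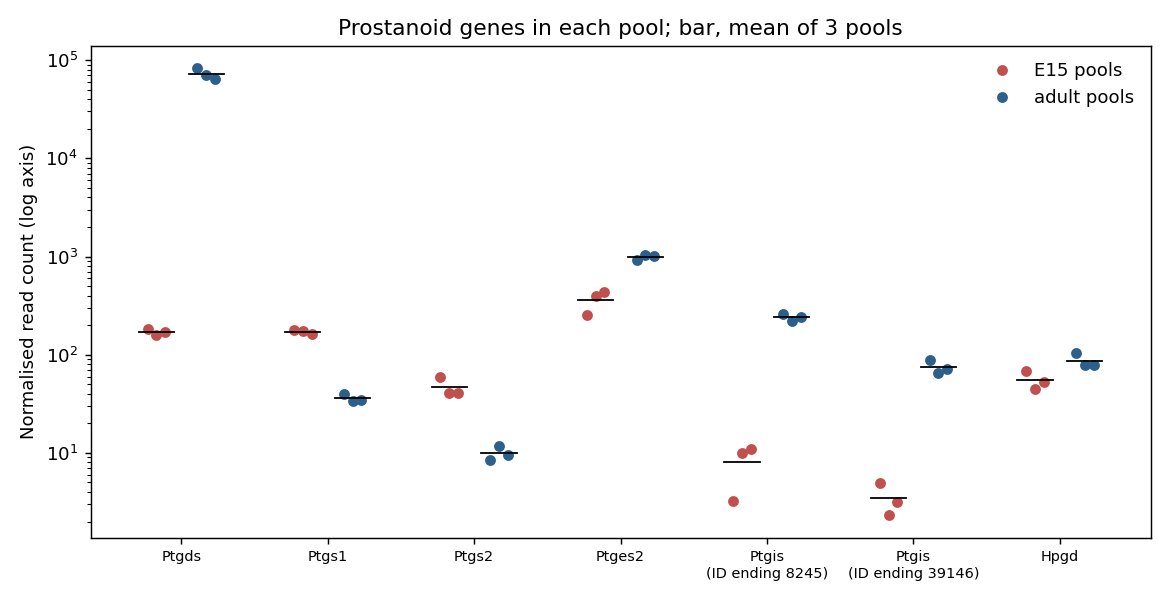
Normalised read count (log axis) of the 7 prostanoid identifiers in each pool, with E15 pools in red, adult pools in blue and a bar at the mean of the 3 pools. *Ptgds* stood at 169.9 ± 11.1 at E15 against 72106 ± 9643 in adult pools, the 2 cyclooxygenase genes were lower in the adult, and for none of the 7 did the ages overlap.

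Markers of other cells that are known to make *Ptgds* were read beside it. Of 16 leptomeningeal and stromal fibroblast genes, 15 could be named, and none was at 0 at either age. Their calls were mixed, with 9 higher at E15 (*Col1a1*, *Col3a1*, *Lum* and *Foxd1* among them) and 6 higher in the adult (*Dcn*, *Pdgfra*, *Ogn*, *Igfbp2*, *Mgp* and *Slc47a1*). Their summed normalised count ranged from 69234 to 93158 at E15 and from 108455 to 122546 in the adult. *Igfbp2* alone had a mean of 25049 at E15 and 78792 in the adult, within mean sums of 82514 and 116429. The higher adult sum thus rests on this gene and does not describe the list. The part of leptomeningeal and stromal cells in the level of *Ptgds* was not tested.

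Of 7 oligodendrocyte genes, 6 could be named, 4 of them higher in the adult (*Mag*, *Mobp*, *Cnp* and *Mal*) and 2 at E15 (*Mog* and *Cldn11*). Their summed normalised count was 1740.2 to 1902 at E15 and 2600 to 4395 in the adult. At E15 *Cldn11* and *Cnp* had means of 898 and 625 within a mean sum of 1809. *Mag*, *Mobp* and *Mal* had means of 1.31, 14.4 and 29.7 there. In the adult *Mal* and *Cnp* had the highest means, 1245 and 1069 within a mean sum of 3415. The gene not matched, *Mbp*, is listed only as MBP_RAT (log2 fold change -4.47 ± 0.69, SE) and is not in the sum. None of the 6 was at 0 over an age, although *Mag* had no count in 2 of the E15 pools. *Mobp*, which encodes a myelin-associated protein of oligodendrocytes and was picked out after its values were seen, had 808 normalised counts in adult replicate 1, 243 in replicate 2 and 128 in replicate 3, a 6.33-fold range. *Mag* had a range of 14.7-fold in the same order. *Mog* (147, 130 and 50.8 normalised counts) and *Mal* (1361, 1221 and 1154) also ran in this order over the adult pools, while *Cnp* and *Cldn11* did not. *Ptgds* was 82634, 69981 and 63704 in the same pools, a 1.30-fold range that ran in the same order as *Mobp*. The epithelial marker *Ttr* also ran in this order, with a range of 1.26-fold, as did *Folr1* and *Aqp1*. *Kl* and *Slc4a5* ran in the opposite order, and *Clic6*, *Kcnj13*, *Kcne2* and *Sostdc1* in neither. The part of oligodendrocytes in the level of *Ptgds* was not tested.

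**Figure D2:**
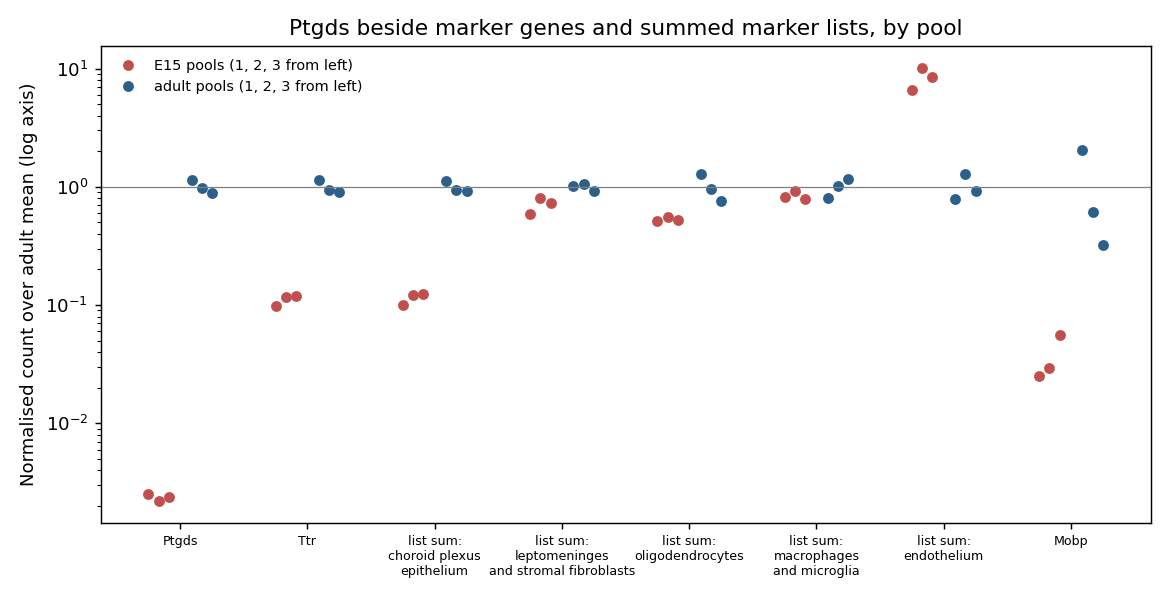
Normalised read count in each pool over the mean of the adult pools (log axis), for *Ptgds*, *Ttr*, *Mobp* and the summed counts of 5 marker lists, with E15 pools in red and adult pools in blue, replicates 1, 2 and 3 from left to right. *Mobp* spread 6.33-fold over the adult pools and *Ptgds* 1.30-fold.

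The genes closest to *Ptgds* in pattern were found by the root mean square difference of log2 normalised counts, each centred on its own mean over the 6 libraries, among 6966 named genes with a mean count of at least 100. They were *Tmem27* (difference 0.29), which encodes the membrane protein collectrin, ACSL6_RAT (0.31), named after an acyl-CoA synthetase, *Pon1* (0.50), the serum paraoxonase, *Ermn* (0.52), known from myelinating oligodendrocytes, and D3ZV73_RAT (0.52). Their fitted enrichment in the adult was between 218-fold and 348-fold, all below that of *Ptgds*. With pools of only 2 ages, this measure is set mostly by the size of the age difference. *Ermn* had 941, 840 and 1045 raw counts in the adult pools and did not follow the order of *Mobp*.

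Both cyclooxygenase genes were higher at E15. *Ptgs1* (ENSRNOG00000007415), the cyclooxygenase that most tissues make constantly, had 220, 225 and 208 raw counts over the E15 pools, against 28, 26 and 25 over the adult pools. The E15 pools were nearly equal and all lay above the adult pools. Its normalised read count was 172 ± 8.53 at E15 against 35.9 ± 3.24 in adult pools (SD, n = 3), a 4.78-fold enrichment at E15 (log2 fold change 2.26 ± 0.23, SE).

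*Ptgs2* (ENSRNOG00000002525), the inducible cyclooxygenase, had 73, 53 and 52 raw counts over the E15 pools, against 6, 9 and 7 over the adult pools. E15 replicate 1 was the highest, and the ages did not overlap. The normalised read count was 47.1 ± 10.9 at E15 against 9.93 ± 1.62 in adult pools, a 4.68-fold enrichment at E15 (log2 fold change 2.23 ± 0.39, SE). At these counts the size of the adult level rests on 22 reads in all. The ratio of *Ptgs1* to *Ptgs2* counts was 3.01 to 4.25 in the E15 pools and 2.89 to 4.67 in the adult pools, so the ranges of the ages overlapped for this ratio.

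The promoters of the 2 cyclooxygenase genes are shown because their transcripts differed between the ages by similar folds. Each is the 250 bases before the RefSeq start of transcription in GRCr8, at chr3:39981169-39981418 on the plus strand for *Ptgs1* and chr13:64713813-64714062 on the plus strand for *Ptgs2*, with E-boxes in capitals as above.
Ptgs1: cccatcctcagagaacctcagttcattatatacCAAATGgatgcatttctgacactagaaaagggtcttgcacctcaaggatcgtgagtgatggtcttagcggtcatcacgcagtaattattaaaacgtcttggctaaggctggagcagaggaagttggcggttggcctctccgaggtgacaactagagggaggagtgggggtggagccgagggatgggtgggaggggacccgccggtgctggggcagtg
Ptgs2: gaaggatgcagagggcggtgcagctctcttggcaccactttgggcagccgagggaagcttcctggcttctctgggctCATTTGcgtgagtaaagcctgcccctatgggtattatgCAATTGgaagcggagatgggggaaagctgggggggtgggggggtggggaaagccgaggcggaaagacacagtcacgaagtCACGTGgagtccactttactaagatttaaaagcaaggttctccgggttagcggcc
The window of *Ptgs1* holds 1 E-box, CAAATG, and none of the other motifs searched. That of *Ptgs2* holds 3 E-boxes, of which CATTTG begins 173 bases before the start, CAATTG begins 135 bases before it and CACGTG begins 55 bases before it. It also holds a GC box and, on the minus strand, a CCAAT box that overlaps the middle E-box. The GC content was 54.4% and 57.2%, compared with 62.0% for *Ptgds* and a median of 51.2% over all promoters. Of the 6 symbols, 4 were matched to a promoter sequence, and *Ptges2* and *Ptgis* are named only.

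*Ptges2* (ENSRNOG00000014050), a membrane-associated prostaglandin E synthase, had 313, 513 and 557 raw counts over the E15 pools, against 650, 806 and 743 over the adult pools. E15 replicate 1 was the lowest of all pools. The normalised read count was 363 ± 94.6 at E15 against 996 ± 66.6 in adult pools (SD, n = 3), a 2.74-fold enrichment in the adult (log2 fold change -1.46 ± 0.19, SE). Without E15 replicate 1 the log2 fold change was -1.26, and under scaling by total counts only it was -0.65, still in favour of the adult.

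Prostacyclin synthase, *Ptgis*, is listed under 2 identifiers, and whether these are parts of 1 gene is not given in the sources used here. ENSRNOG00000008245 had 4, 13 and 14 raw counts over the E15 pools, against 183, 168 and 178 over the adult pools. ENSRNOG00000039146 had 6, 3 and 4 raw counts over the E15 pools, against 62, 50 and 52 over the adult pools. Both were low at E15 and both were higher in every adult pool. The fitted enrichment in the adult was 29.1-fold for the first (log2 fold change -4.86 ± 0.37, SE) and 21.0-fold for the second (log2 fold change -4.39 ± 0.43, SE). Summed over both identifiers, the normalised read count was 11.5 ± 3.04 at E15 against 315 ± 31.9 in adult pools (SD, n = 3), a 27.3-fold difference. In the adult pools the first identifier had 2.95 to 3.42 counts for each count of the second.

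*Hpgd* (ENSRNOG00000010610), the 15-hydroxyprostaglandin dehydrogenase that starts the breakdown of prostaglandins, had 84, 58 and 68 raw counts over the E15 pools, against 73, 61 and 57 over the adult pools. The raw counts of the ages overlapped. After TMM scaling the E15 pools stood at 68.8, 44.7 and 53.3 and the adult pools at 103, 79.2 and 78.3, which do not overlap. *Hpgd* was thus fitted 1.56-fold higher in the adult (log2 fold change -0.64 ± 0.28, SE). With total counts only the direction turned (log2 fold change 0.16). *Hpgd* was the 1 identifier of the 7 that did not pass the adjusted p threshold of 0.05 in the quasi-likelihood fit, and it passed in the adult without E15 replicate 1 (log2 fold change -0.83) and in an exact test in edgeR that gives all genes a common dispersion, the kind of test behind the authors' table.

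In the quasi-likelihood fit with Benjamini-Hochberg adjustment over all genes, 2 of the 7 identifiers were called higher at E15 and 4 higher in the adult, where 64.0% of all genes tested were called, 34.7% at E15 and 29.3% in the adult. A fitted fold above 2 toward E15 was found for 2 of the 7 and toward the adult for 4, as for 29.1% and 19.9% of all genes tested. Normalised counts of the ages did not overlap for any of the 7, as for 70.1% of all genes tested. All 7 had passed the minimum of more than 10 counts. Since the authors' calls on these libraries chose the genes, nothing about prostanoid genes follows from these counts. *Hpgd* stood closest to the threshold among the 7, and genes outside the authors' table have no names here.

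Within each library, *Ptgds* was set against the cyclooxygenase genes that supply its substrate. Counts of *Ptgds* per count of *Ptgs1* lay between 0.916 and 1.04 over the E15 pools, against 2084, 2073 and 1855 over the adult pools. For *Ptgis*, both identifiers together, the ratio to *Ptgs1* was 0.0677 ± 0.0208 at E15 against 8.78 ± 0.408 in adult pools (SD, n = 3). For *Ptges2* it was 2.13 ± 0.641 and 28.0 ± 4.17, and for *Hpgd* it was 0.322 ± 0.0622 and 2.41 ± 0.173. Each of these ratios was higher in all adult pools than in any E15 pool. They are ratios of counts and compare ages, not the levels of the 2 genes, for which transcript lengths would be needed. Because the genes were chosen by their difference between the ages, and *Ptgs1* was higher at E15, this separation follows from the choice. Raw counts of *Hpgd* overlapped between the ages, so its ratio follows the lower adult counts of *Ptgs1*.

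**Figure D3:**
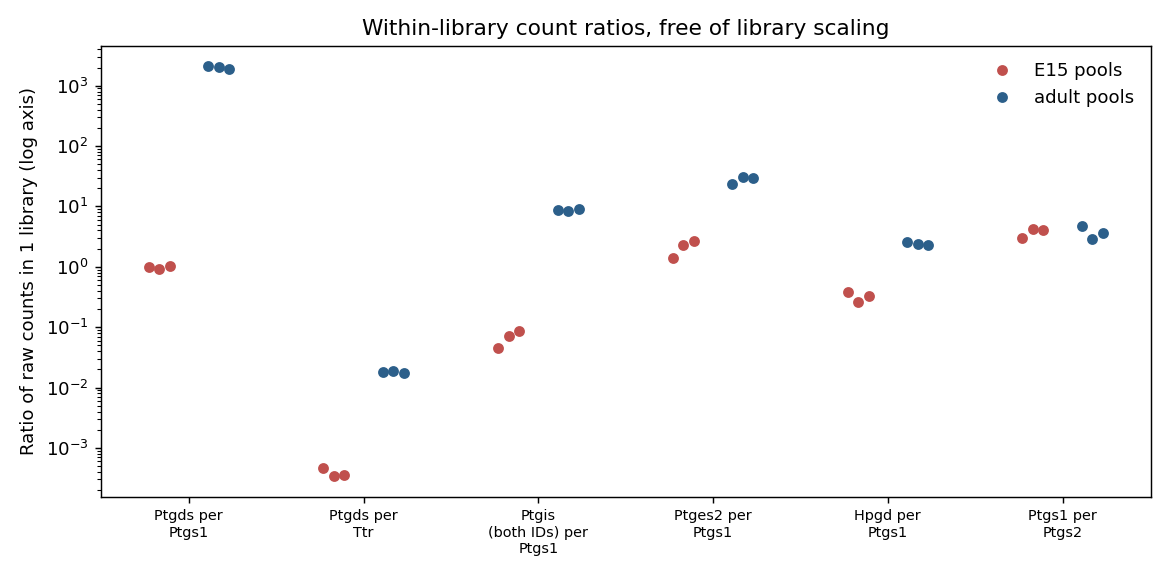
Ratio of raw counts of 2 genes within a library (log axis), with E15 pools in red and adult pools in blue. *Ptgds* per *Ptgs1* lay at 0.916 to 1.04 in E15 pools and at 1855 to 2084 in adult pools, while *Ptgs1* per *Ptgs2* overlapped between the ages.

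Marker genes of cells that are known to make cyclooxygenases were set beside *Ptgs1* and *Ptgs2*. Of 8 endothelial genes, 7 could be named, none was at 0 at either age and all 7 were higher at E15, with a summed normalised count of 8465 to 12976 at E15 and 1002 to 1628 in the adult. Of 8 macrophage and microglia genes, 5 could be named, 2 were higher at E15, 2 in the adult and 1 was not called, with sums of 1746 to 2038 at E15 and 1783 to 2605 in the adult and none at 0. These 5 ran in both directions, and their sums overlapped between the ages. In the adult, *Lyz2* alone had a mean of 1555 within a mean sum of 2221. *Mrc1*, a mannose receptor of tissue macrophages, was higher at E15 (log2 fold change 4.56), as was *Csf1r* (1.18), while *Lyz2*, a lysozyme gene, was higher in the adult (-5.49), as was *Cx3cr1* (-1.21), and *Ptprc* was not called (-0.66). Of 8 genes of mural cells, 5 could be named, none was at 0 and all 5 were higher at E15, with sums of 6293 to 8591 and 950.1 to 1326. The part of these cells in the levels of *Ptgs1* and *Ptgs2* was not tested.

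A wider list of 70 symbols around the pathway gave 32 identifiers with a name, of which 31 were tested. In the quasi-likelihood fit 12 were higher at E15 and 16 in the adult, against 34.7% and 29.3% of all genes tested. Of the 9958 named genes tested, 5035 were called higher at E15 and 4204 in the adult. Their median log2 fold change was -1.31, compared with 0.14 over all genes tested and 0.73 over the named ones. Only genes called by the authors have names, so these counts too are raised by that choice.

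Among 14 named genes of substrate release, 5 were higher at E15 and 9 in the adult. *Pla2g5*, a secreted phospholipase A2, had 271, 310 and 458 raw counts over the E15 pools, against 7599, 8329 and 7803 over the adult pools, a 39.4-fold enrichment in the adult. *Faah*, which splits anandamide into arachidonic acid and ethanolamine, was enriched 11.2-fold in the adult, and *Pla2g16* 6.25-fold. *Abhd12*, a lipase of endocannabinoids and lysophospholipids, was 1.92-fold higher in the adult, and was not called with total counts only. *Pla2g4a*, the cytosolic phospholipase A2 that favours arachidonic acid, was named after its values were seen. It had 272, 288 and 297 raw counts over the E15 pools, against 33, 70 and 35 over the adult pools. It was enriched at E15 (log2 fold change 1.86 ± 0.28, SE), as were both cyclooxygenase genes.

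The second prostaglandin D synthase, *Hpgds*, known from mast cells and macrophages, ran opposite to *Ptgds*. It had 17, 30 and 41 raw counts over the E15 pools, against 0, 1 and 0 over the adult pools, which is a 51.1-fold ratio (exact 95% interval 8.94 to 2041) in favour of E15, and without adult replicate 2, which held the 1 count, at least 11.1-fold. Such intervals and bounds cover counting error only, and the bound takes 3 counts over the pools of the age at 0 as its floor. Of 8 mast cell genes only *Kit* and *Hdc* could be named, the first higher at E15 and the second in the adult. Their sums were 3813 to 3876 at E15 and 1001 to 1223 in the adult. *Kit* had a mean of 3695 at E15 and 347 in the adult, and *Hdc* 155 and 781. The higher E15 sum thus rests on *Kit* and does not describe both genes. The part of mast cells and macrophages in the level of *Hpgds* was not tested.

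Of the other enzymes that act on prostaglandins, 3 were higher in the adult. *Cbr3*, a carbonyl reductase, was enriched 13.5-fold. *Cbr1*, which can reduce prostaglandin E2, was 2.10-fold higher (47.9 ± 27.5 and 101 ± 4.46 normalised counts), and the call was lost under 3 of the scalings and without each pool except E15 replicate 1. *Akr1c14*, an aldo-keto reductase of steroids, had 0, 0 and 5 raw counts over the E15 pools, against 35, 55 and 19 over the adult pools, a fitted 34.2-fold enrichment that was at least 41.5-fold without E15 replicate 3.

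Few receptors could be named, 3 of 11 in the list. *Tbxa2r*, the thromboxane receptor, had 75, 166 and 150 raw counts over the E15 pools, against 8, 4 and 8 over the adult pools, an 11.1-fold enrichment at E15. *Ptgir*, the prostacyclin receptor, had 1, 8 and 1 raw counts over the E15 pools, against 0 over the adult pools, too few to be tested, and 0 counts over 3 pools allow up to 3. *Pparg*, a nuclear receptor that binds prostaglandin derivatives, had 2, 12 and 2 counts over the E15 pools, against 16, 13 and 3 over the adult pools and was not called, but was called in the adult without E15 replicate 2 (8.47-fold), without adult replicate 3 (4.72-fold) and in the exact test. Receptors for prostaglandins D2, E2 and F2-alpha were not analysed here.

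Uptake carriers differed in direction. *Slco2a1*, the prostaglandin transporter, had 121, 254 and 171 raw counts over the E15 pools, against 14, 18 and 23 over the adult pools, a 5.71-fold enrichment at E15. *Slc22a8*, the organic anion transporter Oat3, had 52, 77 and 51 raw counts over the E15 pools, against 5137, 4849 and 4726 over the adult pools, a 141-fold enrichment in the adult. *Slc22a6*, the related Oat1 and also in the leptomeningeal list, was enriched 13.9-fold at E15, or 22.4-fold without adult replicate 2. *Ptgr2*, a reductase of 15-keto prostaglandins, had 1145 ± 225 normalised counts at E15 against 4469 ± 265 in adult pools (SD, n = 3), a 3.90-fold enrichment in the adult. Counts of *Ptgr2* per count of *Hpgd*, the enzyme before it in prostaglandin breakdown, were 18.9 to 23.0 in the E15 pools and 45.2 to 58.3 in the adult pools.

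**Figure D4:**
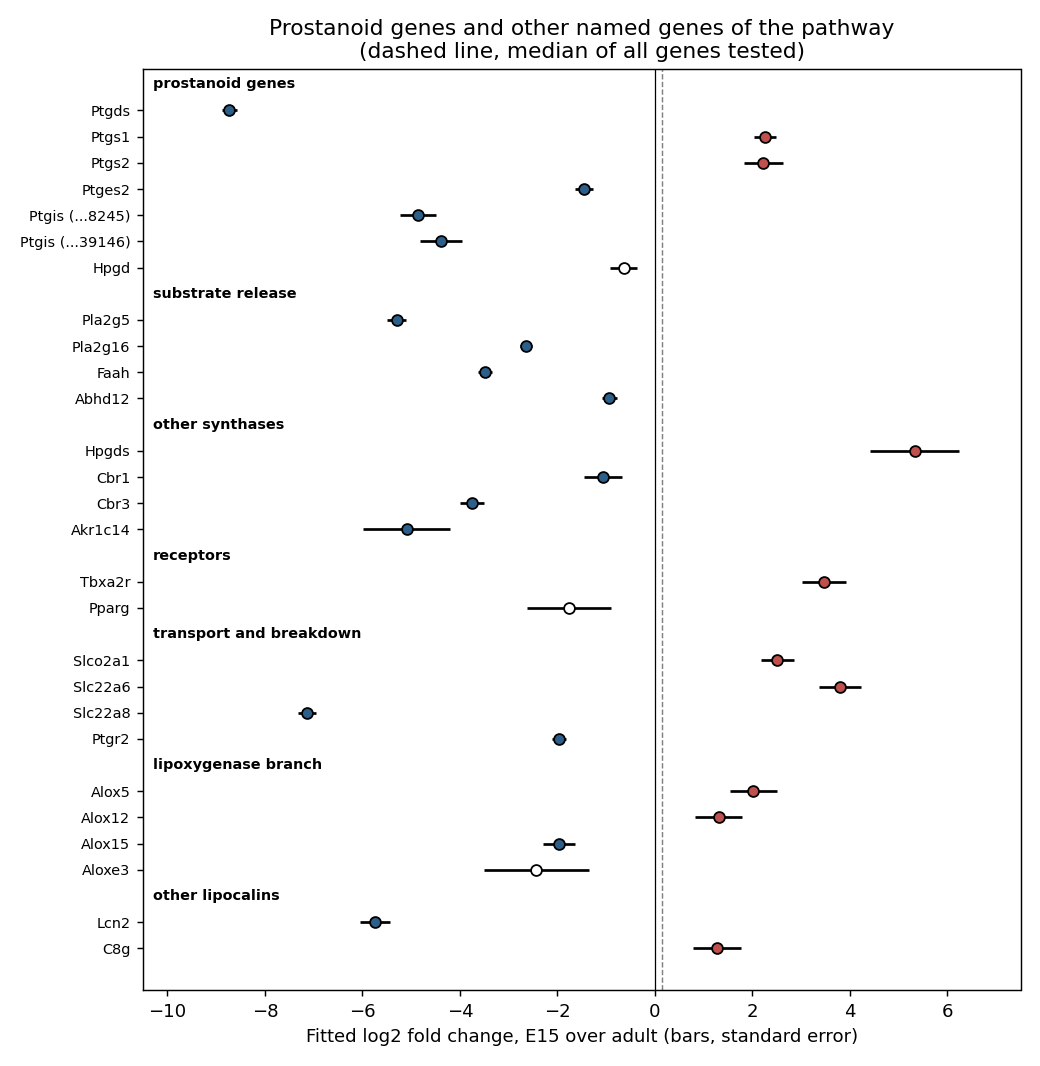
Fitted log2 fold change (E15 over adult) with its standard error for the 7 prostanoid identifiers and 20 other named genes around the pathway, with red for genes called higher at E15, blue for the adult and white for not called. The dashed line is the median of all genes tested, 0.14, and *Ptgds* lies furthest to the left at -8.73.

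Of the parallel lipoxygenase branch, which uses the same fatty acid, 5 of 13 genes could be named. *Alox5*, the start of the leukotriene path, was 4.05-fold higher at E15, and *Alox15* was 3.91-fold higher in the adult. *Alox12* was 2.47-fold higher at E15, with pools that overlapped between the ages, and the call was lost in limma-voom and without E15 replicate 2 or 3 or adult replicate 1 or 3. *Aloxe3* and *Cysltr1* were not called, and *Aloxe3* was called in the adult without E15 replicate 2, which held all of its 7 E15 counts (at least 8.68-fold), in limma-voom and in the exact test.

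Of 8 other lipocalins, 2 could be named. *Lcn2*, which binds bacterial iron carriers, had 5, 16 and 14 raw counts over the E15 pools, against 373, 396 and 327 over the adult pools, a 53.4-fold enrichment in the adult. *C8g*, a complement subunit, was 2.41-fold higher at E15 with at most 29 counts in a pool, and its call was lost without E15 replicate 2 or 3 or adult replicate 2 or 3, in DESeq2, without a filter and with the replicate number as a block. *Ptgs1* had the larger fitted value toward E15 of the 2 cyclooxygenase genes, by less than the standard error of either, and *Ptgs2* had the larger value without E15 replicate 2, E15 replicate 3 or adult replicate 2. The genes closest in pattern to *Ptgs1* were *Gins4*, *Exosc2*, RGD1311517, *Lpcat1* and LOC100362034, with differences of 0.06 to 0.08 by the same measure. Of these *Gins4* takes part in DNA replication, *Exosc2* in RNA degradation and *Lpcat1* in phospholipid remodelling.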

How the data were processed

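RNA of whole lateral ventricular choroid plexus was measured in 6 libraries, 3 pools of 10 rats at E15 and 3 in the adult. The authors trimmed single-end reads and mapped them with Bowtie 0.12.7 (Ensembl release 61 of the rat genome). Reads without a unique place were discarded, and HTSeq 0.4.7p4 in its union mode counted the others on nuclear genes. The first table deposited by the authors gives these raw counts for 29479 identifiers. A second table deposited by the authors holds log2 fold changes, log2 abundances, p-values and adjusted p-values from edgeR 2.4.0 for the 10653 genes they called. Only its gene names were used here, 503 of them through the RefSeq accession printed there (symbols from the GRCr8 annotation), which left 19386 identifiers without a name.

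Genes with more than 10 counts in all were fitted with edgeR 4.0.16 in R 4.3.3 (TMM, estimateDisp, glmQLFit and glmQLFTest, age as the only term), with Benjamini-Hochberg adjustment over all 16643 genes and a threshold of 0.05. The common dispersion was 0.0332. Standard errors are the absolute log2 fold change over the square root of F. Alternatives were other scalings, filters and tests (DESeq2 1.42.0, limma-voom with limma 3.58.1, edgeR's exact test), the replicate number as a block and each library left out in turn. The fits were also run on simulated counts with few changed genes, in directions drawn at random, which does not check the choice of scaling. A pseudocount of 0.5 was used for comparisons of patterns. Sequences came from the RefSeq promoter table. Tables and figures were made with Python 3.11.15.

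The prostanoid genes and all lists were chosen with earlier results of these data known. Named beside them were up to 4 genes of highest mean count in each group of the pathway list, and every receptor and every other synthase that could be named and tested. With 3 pools at each age, the smallest two-sided p of an exact permutation test is 0.1. Nothing says that the pools shared litters or days. The p-values judge the age difference against the spread between pools, not between animals. Because reads with several places were discarded, genes with near-identical copies may be undercounted, and strand was not stated, so reads of overlapping genes cannot be told apart. Of the oligodendrocyte list, 1 gene was left out and is not reported here.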

Additional observations from a re-analysis of the deposited data

How the results depend on the processing

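Of 116 refits of the 7 prostanoid identifiers under the alternatives, 115 kept the direction and 102 moved by less than the standard deviation between pools. Scaling by total counts only gave log2 fold changes of -7.92 for *Ptgds*, 3.06 for *Ptgs1*, 3.02 for *Ptgs2*, -0.65 for *Ptges2*, -4.06 and -3.60 for the 2 identifiers of *Ptgis* and 0.16 for *Hpgd*, which reversed. With totals that left out the 10 genes of highest mean count the values were -8.26 for *Ptgds*, 2.72 for *Ptgs1*, 2.68 for *Ptgs2*, -0.99 for *Ptges2*, -3.94 for ENSRNOG00000039146 and -0.18 for *Hpgd*, and upper quartile factors gave 2.38 for *Ptgs1*. These scalings shift all genes toward E15. With total counts only, 9799 genes were called at E15 against 2292 in the adult, and totals without the 10 genes gave 3196 in the adult. Of the wider pathway list, 10 genes were called in the adult with total counts only and 10 with a mean count above 100 at either age, where fewer genes were tested. With each pool left out in turn the list gave 8 to 11 genes at E15 and 12 to 16 in the adult. Same-numbered pools did not deviate together, with correlations over genes of -0.02, -0.01 and -0.06, so the numbers do not pair the pools. With the replicate number as a block, 5320 genes were called at E15 and 4608 in the adult, and 11 and 13 of the pathway list. *Ptgs2*, ENSRNOG00000039146 and *Hpgd* fell below the filter on a mean count of 100 and have no value there. *Ptgs2* and *Ptgis* rest on few counts at 1 of the ages, which limits the precision of their folds.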

Other observations

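Of the 10 protein-coding genes on each side of *Ptgds* in the order of the GRCr8 annotation, 8 of 20 could be named and tested, 6 with a fitted value toward the adult and 2 toward E15. Among all 9958 named genes tested, 4204 were called higher in the adult and 5035 at E15. Names exist only for genes the authors called, so nothing about the region follows from this split. The nearest in the adult direction were *Clic3*, an intracellular chloride channel gene (log2 fold change -2.83, standard error 0.27), and *Abca2*, a lipid transporter of the ABC family (-2.73, standard error 0.19), both far from the -8.73 of *Ptgds*. *C8g*, a lipocalin gene 2 places from *Ptgds*, was fitted at 1.27 toward E15. *Entpd2*, an ectonucleotidase, was at -4.03 with a standard error of 0.56. The neighbours without a name were not analysed here.

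*Adipoq*, the adipocyte hormone adiponectin and the 1 named gene of a list of 5 adipocyte genes, had 0, 12 and 7 raw counts over the E15 pools, against 3333, 3153 and 3271 over the adult pools. Genes of developing neurons were higher at E15 for 8 of 9 named, with sums of 1619 to 4956 normalised counts at E15 and 146 to 731 in the adult and *Neurod6* at 0 in the adult. All named genes of neural progenitors (7), erythroid cells (8 identifiers) and proliferation (5) were higher at E15.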
